A study of Mus musculus with 10 samples.

Results

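The cytosolic ribosomal protein genes and the genes of the eukaryotic initiation and elongation factors were measured in cultured mouse neurons treated with the JNK inhibitor SP600125 or with its solvent DMSO. Members were taken by symbol: Rpl or Rps followed by a number, with a suffix a, l, x or y or as p0 to p2, and symbols that start with Eif or Eef, without the kinases of the Rps6k and Eif2ak series and without Eif4ebp1. This gave 115 genes of the 19938 tested, of which 58 were ribosomal proteins and 57 were factors. The ribosomal proteins comprised 33 of the large subunit, 19 of the small subunit and 6 paralogs whose symbols end in l. The symbol rule also took in proteins with other functions, such as 5 lysine methyltransferases that modify elongation factors and Eef1e1, a scaffold protein of the aminoacyl-tRNA synthetase complex. Rpl3, Eif4g1 and Eif2s1 were not analysed here.

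All 10 arrays, 1 per sample, held total RNA of cells described as neurons at the end of differentiation, from mice of strain 129Sv-C57Bl/6. The 5 SP600125 samples received 25 µM of the drug 3 times, 2 hours apart, and the 5 DMSO samples received solvent on the same schedule. Biological replicates are lettered a to e in each group. In both groups, the label of drug batch 1 goes with a and b and that of drug batch 2 with c to e. Whether each replicate was a separate culture is not stated, so the p-values speak only of the spread among these arrays, part of which may be technical.

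A ribosome is built from a small subunit, which reads the mRNA, and a large subunit, which joins the amino acids, and most of their proteins are made in equal numbers from very abundant mRNAs. Initiation is run by separate proteins: eIF4F binds the cap and unwinds the leader, eIF3 and eIF2 with the initiator tRNA load the small subunit, eIF2B recharges eIF2 with GTP, and eEF1 and eEF2 then drive elongation. The mRNAs of ribosomal proteins and of several factors begin with a run of pyrimidines, the 5′ terminal oligopyrimidine (TOP) tract, through which mTORC1 controls their translation, and in neurons local translation in axons and dendrites makes use of this machinery.

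The labelled cell type was checked on markers. Neuron markers were high (mean of 7 markers 9.41 to 9.73 on DMSO arrays and 9.11 to 9.65 on SP600125 arrays) and 6 of 7 fell (85.7%). Of all genes 29.9% fell, and of genes with a mean log2 level over 9, where 5 of these markers lay, 59.8% did. After quantile normalization 6 of the 7 were called lower, and after cyclic loess 3 were. Astrocyte markers (8.52 to 8.60 and 8.39 to 8.50) and fibroblast and endothelial markers (8.29 to 8.48 and 8.09 to 8.20) were also present. There were 3 falls (50%) and 1 rise (16.7%) among 6 astrocyte markers. Of 7 fibroblast and endothelial markers 2 fell (28.6%), the collagen genes Col1a1 (-0.69) and Col1a2 (-0.61). The other 5 did not pass, among them Dcn, a fibroblast gene, at 10.53 in both groups. Over all genes 29.9% fell and 17% rose. Microglial markers were near the low end (4.28 to 4.46 and 4.50 to 4.72). The median of olfactory receptor genes near that end was 3.63 in DMSO and 3.87 in SP600125. Of the 6 microglial markers 4 rose (66.7%, against 17% of all genes), and 1 did so after quantile normalization or after cyclic loess. The part of these other cells in the changes of the members was not tested. In these bulk samples fewer cells of a type and less RNA per cell cannot be told apart. Array medians over all probe sets were 5.56 ± 0.04 in DMSO and 5.66 ± 0.03 in SP600125 (SD, n = 5), the SD across genes was 1.81 in DMSO and 1.68 in SP600125, and correlations between arrays ran from 0.976 to 0.993, with no duplicate array.

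Many of the factors fell, and most of the ribosomal proteins did not pass the test. Of the 57 factors, 29 were lower in SP600125, 3 were higher and 25 did not pass (limma, adjusted p under 0.05). Of the 58 ribosomal proteins, 1 was lower, 5 were higher and 52 did not pass. Among all genes, 46.9% were called, 29.9% lower and 17% higher, so the share of factors called lower (50.9%) was above the background and the share of ribosomal proteins called lower (1.72%) was below it. After cyclic loess the factors' share (17.5%) was at the background (17.7% of all genes), while that of the ribosomal proteins was again 1.72%. The median log2 change was -0.17 for the factors, 0.04 for the ribosomal proteins and -0.03 for all genes. The median of the ribosomal proteins changed sign with the scaling, to -0.06 when arrays were centred on the median of all probe sets and to 0.12 after cyclic loess, and that of the factors stayed below 0 under each scaling tried, from -0.27 to -0.05. Centring on all probe sets moved the median of all genes to -0.13, and a shift common to all genes leaves the distances to that median as deposited, 0.06 for the ribosomal proteins and -0.15 for the factors. The factors' distance shrank to -0.05 after quantile normalization and to -0.02 after cyclic loess. That of the ribosomal proteins was 0.11 and 0.14 there, and -0.02 in drug batch 1 alone. The difference between the family medians was 0.21 and ran from 0.14 to 0.27 over all alternatives.

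**Figure D1:**
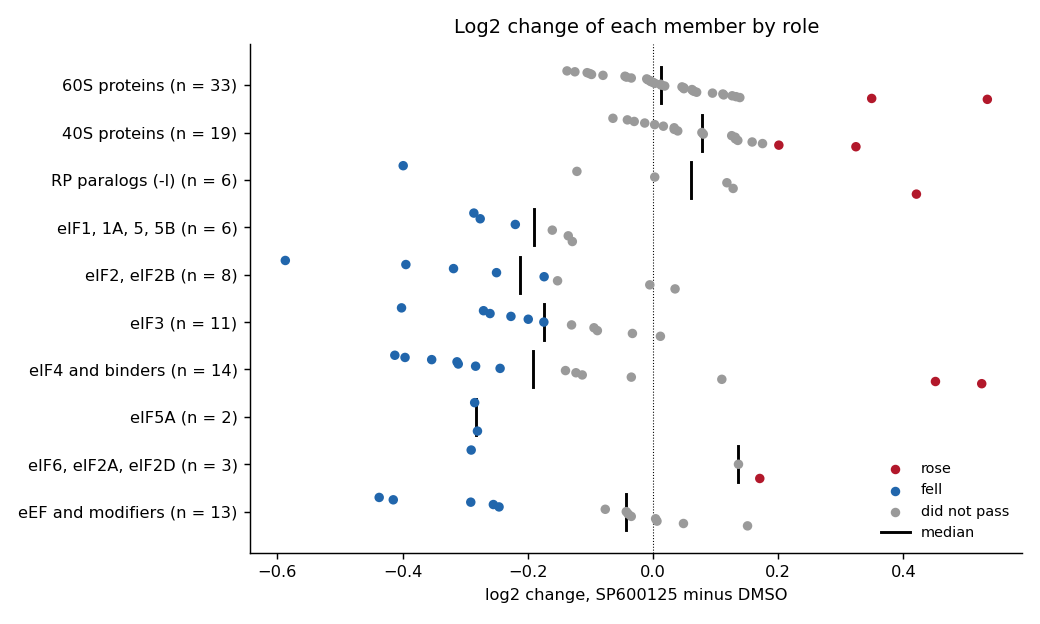
Log2 change (SP600125 minus DMSO, horizontal axis) of each of the 115 members, grouped by role, with the number of genes in each group; red points rose and blue points fell (limma, adjusted p under 0.05), grey points did not pass, and black lines are medians. The blue points lie in the factor groups except for 1 ribosomal protein paralog, while the subunit proteins centre near 0, a position that moves to either side of 0 with the scaling of the arrays.

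The 2 families also differed in level, and change depended on level across the whole array, so bright genes are the closer background. Of the 896 genes with a mean log2 value over 9, 59.8% were called lower and 2.68% higher, with a median change of -0.20. Of these genes, 41 were ribosomal proteins: 3 rose, 0 fell, and their median change was 0.05, 0.25 above that of the bright genes. The 20 factors in that range had 11 falls (55%), 0 rises and a median of -0.27, a share of falls near the background. Between levels of 8 and 9, 5 of 11 factors fell (45.5%), against 66.6% of the genes outside both families, and between 9 and 10 it was 9 of 13 (69.2%) against 65.4%. Over all levels of 9 or less, 48.6% of the factors and 28.5% of all genes fell. These shares are not matched for level, since the median level there was 7.40 for the factors and 5.84 for all genes. Over a level of 10, 49.6% of genes were called lower and 1.45% higher. The 30 ribosomal proteins there had 0 falls and 0 rises, against 135 falls among the 239 genes of that range outside both families. At an unadjusted p under 0.05, 1 of the 41 bright ribosomal proteins was lower and 9 were higher, against 66.1% and 4.24% of all bright genes. The count of 0 falls among ribosomal proteins with a level over 9 became 4 when arrays were centred on all probe sets, where 77% of the bright genes were called lower, and stayed at 0 after cyclic loess, where 28.2% were.

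**Figure D2:**
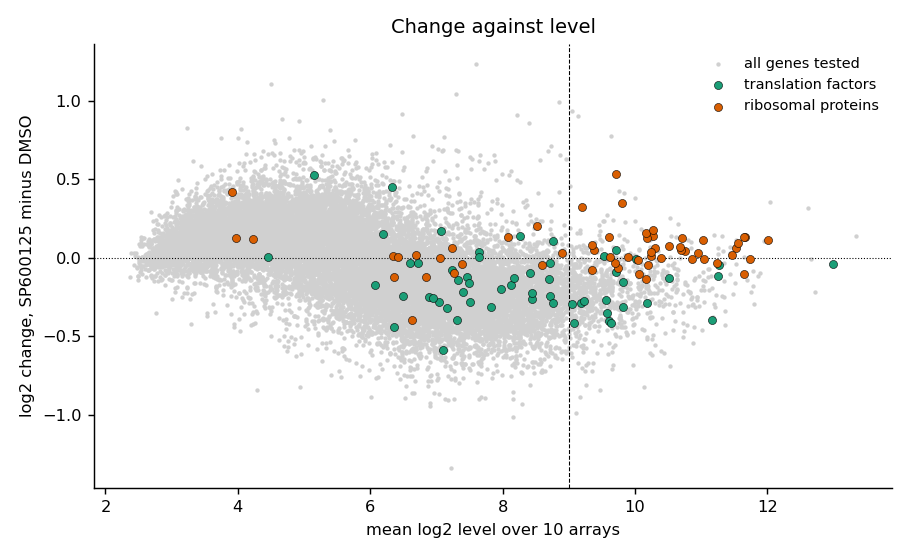
Log2 change (SP600125 minus DMSO, vertical axis) against the mean log2 level over the 10 arrays for all 19938 genes (grey), with ribosomal proteins in orange and factors in green; the dashed line marks a level of 9. The orange points to the right of that line centre on 0.05 while the grey genes there centre on -0.20, and both medians shift together when arrays are centred differently.

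The difference between the families could be read on single arrays. The mean log2 value of the ribosomal proteins minus that of the factors was 0.85, 0.96, 0.99, 1.03 and 1.00 on DMSO arrays a to e, and 1.12, 0.96, 1.20, 1.24 and 1.32 on SP600125 arrays a to e. SP600125 array b lay within the DMSO range and the other SP600125 arrays lay above it. The group means were 0.97 ± 0.07 and 1.17 ± 0.14 (SD, n = 5). The factor mean alone did not overlap between the groups, with 8.34 to 8.41 on DMSO arrays and 8.16 to 8.31 on SP600125 arrays. The ribosomal protein mean overlapped, with 9.25 to 9.44 on DMSO arrays and 9.21 to 9.55 on SP600125 arrays. Within drug batch 1 the ribosomal protein mean changed by -0.02 and the factor mean by -0.16, and within drug batch 2 they changed by 0.10 and -0.15.

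**Figure D3:**
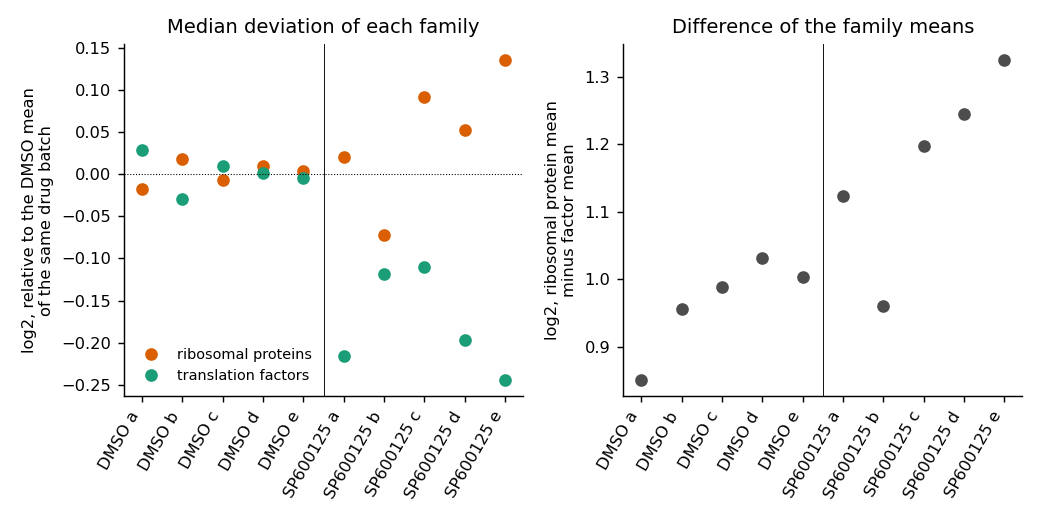
Left, median deviation of each family's genes from their DMSO mean in the same drug batch (log2) on each array; right, the ribosomal protein mean minus the factor mean (log2) on each array. On the 5 SP600125 arrays the factors lie below 0 and the ribosomal proteins above 0 except on array b, and the difference on that array (0.96) lies among the DMSO values.

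The start windows of some of these genes are printed because the TOP tract is the sequence feature that ribosomal protein mRNAs share with only part of the factors. Each line holds 10 bases before and 20 bases after the annotated transcript start, 5′ to 3′ on the strand that reads as the mRNA, from RefSeq (GRCm38.p6). Capitals mark a run of at least 5 bases that are each C or T whose first base lies within 5 bases of the start.
Rps6: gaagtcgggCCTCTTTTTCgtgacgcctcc
Rps18: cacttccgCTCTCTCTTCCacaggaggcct
Rps15a: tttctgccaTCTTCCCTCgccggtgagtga
Rpl28: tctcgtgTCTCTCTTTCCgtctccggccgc
Eef1a1: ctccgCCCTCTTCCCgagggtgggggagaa
Eif3f: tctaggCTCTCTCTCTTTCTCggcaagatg
Eif4a1: gtaacgtcacgtcgagttgcagagcgccgg
Eif4a2: gaaaccccgtaggagcagggcggccgagga
Eif2b1: tcgatttccggcgccgacgagtgacgccac
Eif3a: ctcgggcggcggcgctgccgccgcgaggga
The windows lie at chr4:86857348-86857377 (Rps6, minus strand), chr17:33955646-33955675 (Rps18, minus), chr7:118116128-118116157 (Rps15a, minus), chr7:4792955-4792984 (Rpl28, plus), chr9:78481705-78481734 (Eef1a1, minus), chr7:108934405-108934434 (Eif3f, plus), chr11:69672404-69672433 (Eif4a1, minus), chr16:23107458-23107487 (Eif4a2, plus), chr5:124579112-124579141 (Eif2b1, minus) and chr19:60790674-60790703 (Eif3a, minus). Each spans the promoter edge and the first exon. The first 6 hold such a run and the last 4 do not. These windows are examples and do not stand for the families. Of the 46 ribosomal proteins with a window, 30 hold no run whose first base lies within 5 bases of the start. In 8 of these 30, a run that begins further upstream reaches into the bases around the start.

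Of the members, 46 ribosomal proteins and 45 factors matched a start window. A run on the mRNA strand began at the start in 16 of the ribosomal proteins (34.8%) and 13 of the factors (28.9%), against 23.4% of the 27025 genes with a window. Counting every run that reaches into the 5 bases before or the 5 bases after the start, the shares were 52.2%, 42.2% and 35.1%. Among factors with a run, 4 of 13 fell and 1 rose, with a median change of -0.13. Among factors without it, 20 of 32 fell and 1 rose, with a median of -0.25. Eif3f (0.01), Eef1a1 (-0.04) and Eif2s3x (-0.15) hold a run and did not pass, and Eif3b, Eif3l, Eif4a3 and Eef1a2 hold a run and fell. Over the 15614 tested genes with a window, 30.1% of those with a run and 30.9% of those without fell, and among the ribosomal proteins 2 of 16 with a run and 2 of 30 without rose. A match says only that these letters stand at the annotated start.

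The large subunit proteins had 2 rises and 0 falls among 33 genes, with a median change of 0.01. Rpl29, also known as a heparin-binding protein, read 9.46, 9.63, 9.37, 9.33 and 9.46 on DMSO arrays a to e, and 10.03, 9.92, 9.999, 9.91 and 10.06 on SP600125 arrays a to e. All SP600125 arrays lay above all DMSO arrays, and Rpl29 had the largest rise of the ribosomal proteins, 0.53 ± 0.07 (SE; limma, adjusted p = 0.000119). It kept its call under every alternative except drug batch 1 alone, where the change was 0.43. Rpl7a, of the L7Ae family of RNA-binding proteins, read 9.69, 9.60, 9.53, 9.60 and 9.74 in DMSO, and 9.96, 9.74, 9.998, 10.14 and 10.07 in SP600125. Its groups overlapped only at 9.74, where SP600125 array b lay just below DMSO array e, and it rose by 0.35 ± 0.07 (SE; limma, adjusted p = 0.00206). All 3 of its probe sets rose.

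Other large subunit proteins lay close to 0. Rplp0, the base of the ribosomal stalk and a common reference gene, had 11.58 to 11.82 in DMSO and 11.67 to 11.86 in SP600125, with overlapping groups. Rpl10, which completes the subunit at the site of its last maturation steps, had a change of -0.10 and did not pass (limma, adjusted p = 0.188). Rpl22, an RNA-binding protein whose loss in mice mainly affects T cells, had a change of -0.04, which turned positive after quantile normalization (0.10) and cyclic loess (0.13). Rpl13 had the lowest value of the subunit at -0.14 and did not pass (limma, adjusted p = 0.0769). Rpl5, a partner of the 5S RNA, had 0.13 and did not pass (limma, adjusted p = 0.0818), although 2 of its 5 probe sets rose when every probe set was tested.

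The small subunit proteins had 2 rises and 0 falls among 19 genes, with a median of 0.08. Rps28, a small protein near the mRNA exit, read 8.75, 8.76, 9.17, 9.31 and 9.23 on DMSO arrays a to e, and 8.96, 8.69, 9.70, 9.69 and 9.78 on SP600125 arrays a to e. The 2 drug batches stood apart, and within batch 1 the groups overlapped. The rise was 0.32 ± 0.08 (SE; limma, adjusted p = 0.00667), and all 7 of its probe sets rose, some with identical values. By batch it was 0.08 in batch 1 and 0.49 in batch 2. The interaction of treatment and batch had an unadjusted p of 0.0081, which did not pass after adjustment (limma, adjusted p = 0.489). Rps15a rose by 0.20 ± 0.07 (SE; limma, adjusted p = 0.0357). That call was lost when any single array was left out except DMSO array a or SP600125 array e, with adjusted p from 0.0131 to 0.0977, and with centring on all probe sets (0.10).

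Rps6, the ribosomal protein phosphorylated by S6 kinase and a common readout of mTORC1 activity, read 11.62, 11.60, 11.57, 11.53 and 11.60 in DMSO, and 11.72, 11.57, 11.71, 11.82 and 11.78 in SP600125. SP600125 array b lay among the DMSO arrays and the other 4 lay above them. The change was 0.14 ± 0.06 (SE) and did not pass (limma, adjusted p = 0.0808). Without SP600125 array b it was 0.17 (limma, adjusted p = 0.023). Rps2, at the mRNA entry channel, read 11.67, 11.67, 11.55, 11.52 and 11.60 in DMSO, and 11.80, 11.71, 11.68, 11.76 and 11.73 in SP600125. The groups did not overlap, by a narrow margin, and the change of 0.13 did not pass (limma, adjusted p = 0.0651) except without SP600125 array b (0.15, adjusted p = 0.0355). Rps19, a maturation protein mutated in Diamond-Blackfan anaemia, had a change of -0.04 that turned positive after quantile normalization (0.07) and cyclic loess (0.13).

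SP600125 array b carried much of the uncertainty on the ribosomal proteins. Without it, 12 ribosomal proteins were called higher instead of 5, and 1 was called lower. Those 12 are 20.7% of the ribosomal proteins, against 16.7% of all genes called higher without that array, a share near the background. Leaving out both b arrays, an alternative added after seeing the data, also gave 12 rises (20.7%, against 17.1% of all genes). Among them were Rps4x (0.25), Rps12 (0.27), Rps13 (0.26), Rpl7 (0.19) and Rpl5 (0.17). Leaving out any other single array gave at least 4 rises and no more than 1 fall.

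The paralogs whose symbols end in l are mostly retained copies with restricted expression, and their values spread more than those of the subunit proteins. Rpl39l, a copy known from testis, read 3.70, 3.88, 3.68, 3.62 and 3.65 in DMSO, and 3.99, 4.24, 4.02, 3.90 and 4.47 in SP600125. It was among the dimmest members, near the median of olfactory receptor genes (3.63 in DMSO and 3.87 in SP600125), which are not known to be active in such cells. Its rise of 0.42 ± 0.10 (SE; limma, adjusted p = 0.00383) stands beside a shift of 0.24 in those receptors, whose part in it was not tested. Rps4l, a copy of Rps4x, read 6.85, 6.65, 6.94, 6.96 and 6.76 in DMSO, and 6.51, 6.42, 6.41, 6.40 and 6.42 in SP600125. It was the ribosomal protein gene that fell, by 0.40 ± 0.07 (SE; limma, adjusted p = 0.000629), with no overlap, though only 1 of its 2 probe sets passed. The first RefSeq record annotated to both probe sets is of the non-coding RNA class. Rps27l, a p53 target, had -0.12 (limma, adjusted p = 0.243), and Rpl3l, the muscle copy of Rpl3, had 0.12 (limma, adjusted p = 0.142), which turned negative after quantile normalization (-0.03) and cyclic loess (-0.02).

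**Figure D4:**
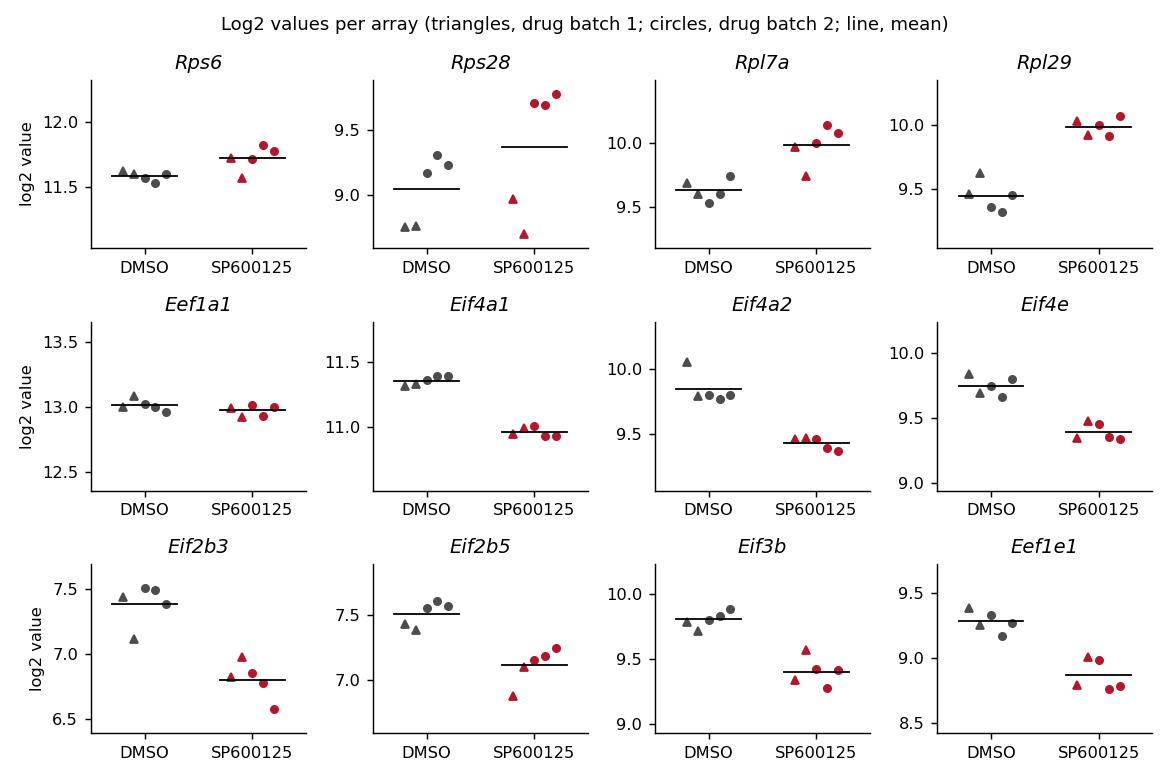
Log2 value on each array of 12 members, with DMSO in grey and SP600125 in red, triangles for drug batch 1 and circles for drug batch 2; lines are group means, and every panel spans the same height. Eif4a1, Eif4a2, Eif4e, Eif2b3, Eif2b5, Eif3b and Eef1e1 are lower and Rpl29 higher in SP600125 with no overlap, Eef1a1 overlaps, and Rps28 separates by batch.

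Of the start-site factors, which select the AUG codon and join the subunits, 3 of 6 fell (50%). The share was 29.9% over all genes and 66.6% among genes outside both families at levels of 8 to 9. Eif1ax, the X-linked gene of eIF1A, had 9.26 to 9.44 in DMSO and 8.94 to 9.19 in SP600125 and fell by 0.29 ± 0.06 (SE; limma, adjusted p = 0.00275). Eif5, the GTPase activator of eIF2, had 9.28 to 9.48 in DMSO and 8.86 to 9.21 in SP600125 and fell by 0.28 (limma, adjusted p = 0.00664). Neither gene overlapped between the groups. Eif1a fell by 0.22. Eif1b (-0.14) and Eif5b (-0.13), which joins the subunits, did not pass.

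The exchange factor eIF2B fell as a whole set while the measured subunits of its substrate eIF2 did not pass. All 5 eIF2B genes were called lower, with a median of -0.32, against 28.5% of all genes with a level of 9 or less. Eif2b3, the gamma subunit, read 7.44, 7.11, 7.51, 7.49 and 7.39 in DMSO, and 6.82, 6.98, 6.85, 6.78 and 6.58 in SP600125. It had the largest fall of the members, to 0.67 of the DMSO level, a log2 change of -0.59 ± 0.09 (SE; limma, adjusted p = 0.000347). Eif2b5, the catalytic subunit, read 7.43, 7.38, 7.55, 7.60 and 7.57 in DMSO, and 6.88, 7.10, 7.15, 7.19 and 7.24 in SP600125. The groups did not overlap for either gene, and Eif2b5 fell by 0.39 ± 0.06 (SE; limma, adjusted p = 0.000338). Eif2b1 fell by 0.32, Eif2b2 by 0.25 and Eif2b4 by 0.17, and these 3 did not pass after cyclic loess (-0.16, -0.12 and -0.17). Eif2s2, the beta subunit of eIF2, had -0.01, Eif2s3x, a gamma subunit on the X chromosome, had -0.15 (limma, adjusted p = 0.0627), and Eif2s3y, its Y copy, had 0.04.

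Of eIF3, the scaffold that holds the small subunit, 6 of 11 genes fell and none rose. That share of falls (54.5%) was above the 29.9% of all genes. It was below the 66.6% of genes outside both families at levels of 8 to 9, the range of the eIF3 median (8.72). Eif3b, a core subunit, read 9.79, 9.71, 9.80, 9.83 and 9.89 in DMSO, and 9.34, 9.57, 9.42, 9.27 and 9.41 in SP600125. There was no overlap, and Eif3b fell by 0.40 ± 0.07 (SE; limma, adjusted p = 0.00056). Eif3a, the largest subunit, fell by 0.27 (limma, adjusted p = 0.00232) and Eif3l by 0.26 (limma, adjusted p = 0.00383), with calls lost after cyclic loess (-0.14 and -0.08). Eif3d, Eif3i and Eif3k also fell, by 0.17 to 0.23, and after cyclic loess Eif3k stood at 0.01. Eif3h (-0.13), Eif3m (-0.09), Eif3c (-0.09), Eif3e (-0.03) and Eif3f (0.01) did not pass. The subunits of this complex thus did not share a single value.

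Among the cap-binding group of eIF4 and its partners, 7 of 14 genes fell (50%) and 2 rose (14.3%). Over all genes 29.9% fell and 17% rose, and 66.6% of genes outside both families fell at levels of 8 to 9. Eif4a1, the RNA helicase of eIF4F, read 11.32, 11.33, 11.36, 11.39 and 11.39 in DMSO, and 10.95, 10.99, 11.01, 10.93 and 10.93 in SP600125. Both groups were tight and well apart, and it fell by 0.40 ± 0.05 (SE; limma, adjusted p = 0.000211), with all 3 of its probe sets lower. Eif4a2, the helicase paralog that is abundant in brain, read 10.06, 9.80, 9.80, 9.77 and 9.80 in DMSO, and 9.46, 9.47, 9.46, 9.40 and 9.37 in SP600125. DMSO array a was high and there was no overlap. Eif4a2 fell by 0.41 ± 0.06 (SE; limma, adjusted p = 0.000331), and its change differed from that of Eif4a1 by 0.02.

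Eif4e, the cap-binding protein, read 9.84, 9.69, 9.75, 9.66 and 9.80 in DMSO, and 9.35, 9.48, 9.46, 9.36 and 9.34 in SP600125. The groups did not overlap, and Eif4e fell by 0.35 ± 0.06 (SE; limma, adjusted p = 0.000679). Its 2 brighter probe sets fell and a dim one (mean level 5.20) rose by 0.23. Eif4e2, a cap-binding repressor homologue, fell by 0.28, and Eif4e3 had -0.03 and did not pass. Eif4h, a helper of the helicase, fell by 0.31, Eif4a3 of the exon junction complex by 0.31 and the scaffold Eif4g3 by 0.24. Eif4g2, the scaffold of cap-independent initiation, had -0.11 (limma, adjusted p = 0.112), and Eif4ebp2, the main 4E-BP of brain, had -0.14 (limma, adjusted p = 0.207), which turned to 0.03 after cyclic loess. Eif4b, the other helper of the helicase, had 0.11 and did not pass (limma, adjusted p = 0.134).

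The 2 genes of this group that rose are copies with low values. Eif4e1b, known from oocytes, read 6.02, 6.29, 6.15, 6.17 and 5.89 in DMSO, and 6.54, 6.49, 6.47, 6.60 and 6.68 in SP600125, and it rose by 0.45 ± 0.08 (SE; limma, adjusted p = 0.000712). Its other probe set had 0.11 and did not pass (limma, adjusted p = 0.187). Eif4a3l1, a copy of Eif4a3, read 5.10, 4.83, 4.70, 5.11 and 4.69 in DMSO, and 5.26, 5.57, 5.34, 5.55 and 5.35 in SP600125, and it rose by 0.53 ± 0.10 (SE; limma, adjusted p = 0.000965). Neither overlapped, and they moved opposite to Eif4e and Eif4a3.

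Both genes of eIF5A, which helps the ribosome through difficult peptide bonds, fell by 0.28 (limma, adjusted p = 0.00284 for Eif5a and 0.00602 for Eif5a2), and the other probe set of Eif5a had -0.13 and did not pass (limma, adjusted p = 0.105). Eif6, which keeps the subunits apart until the large one is mature, fell by 0.29 (limma, adjusted p = 0.00269). Eif2d, which places tRNA without eIF2, read 6.80, 6.93, 7.09, 7.0025 and 7.10 in DMSO, and 6.90, 6.97, 7.27, 7.30 and 7.35 in SP600125. Its groups overlapped, and its rise of 0.17 (limma, adjusted p = 0.0341) was lost when DMSO array a, c, d or e or SP600125 array c, d or e was left out, with adjusted p up to 0.0862, and with centring on all probe sets (0.07). Eif2a, an alternative initiator-tRNA carrier that is not a subunit of eIF2, had 0.14 (limma, adjusted p = 0.258), with -0.16 in batch 1 and 0.33 in batch 2.

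The core elongation factors did not pass. Eef1a1, the carrier of aminoacyl-tRNA, read 13.00, 13.09, 13.02, 13.00 and 12.96 in DMSO, and 13.00, 12.92, 13.02, 12.93 and 13.00 in SP600125. The groups overlapped, with a change of -0.04 ± 0.06 (SE; limma, adjusted p = 0.574). After quantile normalization it was called lower (-0.23; limma, adjusted p = 0.0111). Eef2, the translocase, had 11.25 to 11.34 in DMSO and 11.23 to 11.28 in SP600125, also a change of -0.04 (limma, adjusted p = 0.524). The exchange factors Eef1b2 and Eef1d had 0.05 and 0.00.

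Other genes of the elongation group fell. Eef1a2, the form of eEF1A that replaces Eef1a1 in mature neurons and muscle, read 9.20, 9.01, 9.24, 9.29 and 9.19 in DMSO, and 8.82, 9.15, 8.91, 8.70 and 8.91 in SP600125. SP600125 array b lay among the DMSO arrays, and Eef1a2 fell by 0.29 ± 0.08 (SE; limma, adjusted p = 0.0121), 0.25 more than Eef1a1. Eef2k, the kinase that inactivates eEF2, had 7.03 to 7.18 in DMSO and 6.75 to 6.93 in SP600125 and fell by 0.26 (limma, adjusted p = 0.00436), while its other probe set had -0.07 and did not pass (limma, adjusted p = 0.379). Eef1e1 had 9.17 to 9.38 in DMSO and 8.76 to 9.01 in SP600125 and fell by 0.42 ± 0.07 (SE; limma, adjusted p = 0.00055). Of the lysine methyltransferases, Eef1akmt1 (by 0.44) and Eef1akmt2 (by 0.25) fell and 3 did not pass. Leaving out these 5 enzymes gave 27 falls and 3 rises among 52 factors.

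Across the 10 arrays, 12 factors were lower and 2 higher without any overlap of the groups, against 16.4% of all genes lower and 6.65% higher. Among the ribosomal proteins, 2 were lower and 3 higher without overlap. The changes were small throughout: the members ran from -0.59 to 0.53 on the log2 scale.

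Ribosomal proteins differed between the drug batches more than most genes. In the same fit, 0.547% of all genes were higher in batch 2 and 0.176% lower. Of the ribosomal proteins, 10 of 58 were higher in batch 2, of which 7 belonged to the small subunit, and 0 were lower. Rps29 showed the largest gap, with 8.76 and 8.91 on DMSO arrays a and b, and 9.58, 9.68 and 9.58 on DMSO arrays c, d and e. On SP600125 arrays it read 8.92 and 8.76 in batch 1 and 9.77, 9.62 and 9.86 in batch 2. The gap was thus present in both treatments (0.84 overall; limma, adjusted p = 4.19e-05), and the change with SP600125 was 0.08 and did not pass. Among the factors, Eif3l (0.38) and Eif3k (0.35) were higher in batch 2.

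The response itself was compared between batches by an interaction term, which called 0% of all genes after adjustment, with 9.29% at an unadjusted p under 0.05. Of the ribosomal proteins 6 and of the factors 4 had an unadjusted p under 0.05. Rps25 had the smallest value among ribosomal proteins after Rps28: it read 10.02 and 10.02 in DMSO and 9.85 and 9.76 in SP600125 in batch 1, and 10.09, 10.05 and 10.07 in DMSO and 10.19, 10.17 and 10.22 in SP600125 in batch 2. It lay lower in batch 1 and higher in batch 2, a difference of 0.34 (limma, adjusted p = 0.49).

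Many ribosomal protein genes have near-identical processed copies in the genome, so probe sets can share signal with them. All probe sets with 1 symbol were therefore tested, of which 29.3% were called lower and 16.6% higher. The ribosomal proteins had 210 probe sets, of which 20 rose and 1 fell, and the factors had 67, of which 4 rose and 32 fell. Of the 20 rises, Rps28 gave 7 and Rpl7a 3. Some probe sets of a gene, as for Rps12, Rpl41 and Rps28, had identical values, so these are not counts of independent measurements. Of the 38 ribosomal protein genes with several probe sets, 0 had calls in both directions and 7 had changes of both signs.

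The calls on the factors depended on how the arrays were scaled. Cyclic loess, which removes a trend of change with level, left 10 of the factors called lower, all among the 29: Eif2b3, Eif2b5, Eif3b, Eif4a1, Eif4a2, Eif4e, Eif4h, Eif5a, Eef1e1 and Eef1akmt1. These 10 are 17.5% of the factors, against 17.7% of all genes called lower after cyclic loess. Cyclic loess raised the rises among ribosomal proteins to 16 (27.6%) and among factors to 7 (12.3%), against 9.44% of all genes. Quantile normalization gave 18 falls (31.6%, against 22.5% of all genes) and 5 rises (8.77%, against 7.51%) among factors. Of those falls 17 were among the 29 and the other was Eef1a1, while Eif1a (-0.10), Eif3l (-0.11), Eif6 (-0.17) and Eef1a2 (-0.19) were among those that no longer passed. Without the batch term Rps28 and Eif3l also lost their calls (limma, adjusted p = 0.169 and 0.0676). Within drug batch 1, with 2 arrays a group, no member was called. In batch 2 alone 12 ribosomal proteins rose (20.7%, against 11.1% of all genes) and 2 fell (3.45%, against 27.3%).

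**Figure D5:**
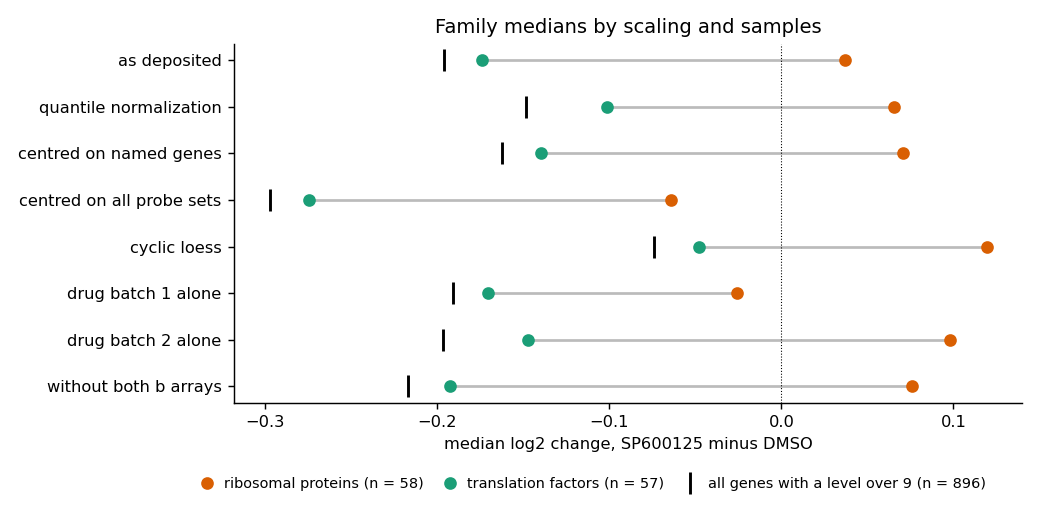
Median log2 change (SP600125 minus DMSO) of the ribosomal proteins (orange), the factors (green) and all genes with a level over 9 (black marks) as deposited, after 4 other scalings and in subsets of the arrays. The orange point lies to the right of the green one in every line (by 0.14 to 0.27), while its own side of 0 differs: it is at -0.06 with centring on all probe sets and at -0.03 in drug batch 1.

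Other parts of the translation pathway were read from lists of genes outside the symbol rule. Ribosome biogenesis fell almost throughout: 23 of 25 genes were lower (92%, against 29.9% of all genes), with a median of -0.34. Their median level was 7.78, against 5.96 over all genes, so these shares are not matched for level. Between levels of 8 and 9, 66.6% of genes outside both families fell. Dkc1, which modifies ribosomal RNA, read 7.22 ± 0.06 in DMSO and 6.52 ± 0.03 in SP600125 (SD, n = 5) and fell by 0.70 (limma, adjusted p = 1.11e-05), and Polr1a, the large subunit of RNA polymerase I, fell by 0.57 (limma, adjusted p = 5.88e-05). After cyclic loess 8 of these 25 genes were still called lower, with a median of -0.16, beside 17.7% of all genes. Of 7 genes for release, rescue and recycling 5 fell (71.4%), led by the recycling ATPase Abce1 at -0.40. Their median level was 8.52, and 66.6% of genes outside both families fell between levels of 8 and 9. Of 13 mTORC1 and S6 kinase genes (median level 7.64) 8 fell (61.5%, against 29.9% of all genes, not matched for level). Among them were Mtor at -0.50, Rps6ka3, a kinase of the RSK family, at -0.49, and Ppp1r15b, a phosphatase subunit that acts on eIF2, at -0.22. Tsc1 (-0.23) and Tsc2 (-0.24), inhibitors of mTORC1, also fell, so genes of opposite action moved together. Of these 13 genes 3 were called lower after quantile normalization (median -0.07) and 2 after cyclic loess (median -0.03). Of 8 TOP mRNA genes outside the symbol rule only Btf3 fell (-0.16), a call lost after both of these scalings, and Rpsa (-0.10) and Fau (-0.05), small subunit proteins with other symbols, did not pass. Of 5 measured poly(A)-binding genes 1 fell, and Pabpc1 had -0.04. That fall was lost after cyclic loess.

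Among 7 inhibitors of initiation 3 fell (42.9%) and 1 rose (14.3%), against 29.9% and 17% of all genes. All 3 falls were lost after quantile normalization and after cyclic loess. Pdcd4, which blocks the helicase eIF4A, read 8.53, 8.56, 8.29, 8.13 and 8.24 on DMSO arrays a to e, and 9.12, 8.69, 9.15, 9.11 and 9.06 on SP600125 arrays a to e. The groups did not overlap, with SP600125 array b lowest, and it rose by 0.68 ± 0.10 (SE; limma, adjusted p = 0.000331) while both Eif4a genes fell. The stress kinases Eif2ak3 and Eif2ak4, which phosphorylate eIF2, fell by 0.26 and 0.25. Eif4ebp1 had 0.02 and did not pass.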

How the data were processed

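Expression was measured on Affymetrix whole-transcript arrays. The authors deposited 1 log2 value per probe set and array, and the log2 scale was inferred from their range (1.90 to 13.83). The submitters' processing notes name oligo 1.14.0. How background, normalization and summarization were handled is not given in the sources used here. Precision is limited by the number of arrays. Of 35556 probe sets, 21789 carried 1 gene symbol in the platform annotation, 1621 several and 12146 none there. Each gene was read from its brightest 1-symbol probe set over all arrays, which gave 19938 genes, and levels of different probe sets were not compared. Groups and drug batches came from the labels.

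Treatment and drug batch were the terms of a linear model with moderated two-sided tests (R 4.3.3, package limma 3.58.1, 7 residual degrees of freedom), and p-values were adjusted by Benjamini-Hochberg over all genes, with a threshold of 0.05. The fit was tested on simulated data. Another fit added the interaction, and another used all 1-symbol probe sets. Alternatives were quantile normalization, centring on the median of all probe sets or of named genes, cyclic loess, the replicate letter as a block, no batch term, each batch alone, genes above the olfactory receptor median, the mean over a gene's probe sets, eBayes with trend and robust, and each array left out. Lists held genes for release, rescue and recycling, poly(A)-binding, inhibitors of initiation, mTORC1 and S6 kinase, ribosome biogenesis, other TOP mRNAs and genes near the symbol rule, and markers of neurons, astrocytes, oligodendrocyte lineage, microglia, fibroblasts and endothelium, neural progenitors and pluripotent cells. Beyond the markers described, 3 of 6 oligodendrocyte lineage (50%) and 2 of 6 neural progenitor markers (33.3%) fell, against 29.9% of all genes. Of 4 pluripotency markers 2 rose (50%, against 17% of all genes). The members and lists were chosen with earlier results of these data known.

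Named genes were, in each role group, the 3 largest changes past the threshold in each direction or the largest change where none passed, the 3 members with the smallest interaction p, and the genes Rps6, Rplp0, Rpl10, Rps2, Rps19, Rps27l, Rpl22, Rpl3l, Eif4e, Eif4g2, Eif4a1, Eif4a2, Eif4ebp2, Eif2b5, Eif3a, Eif5a, Eif6, Eef1a1, Eef1a2, Eef2, Eef2k and Eef1b2; other members were named after their values were seen. Start windows came from RefSeq promoters (GRCm38.p6), and motifs were searched only on the strand that reads as the mRNA. Within group and batch, deviations of same-lettered arrays correlated from -0.14 to -0.01 over genes, so the letters were not taken to pair the samples.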

Additional observations from a re-analysis of the deposited data

Results flagged for a closer look

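Within the groups of 5 arrays, some samples stood far from the other 4 for named genes: DMSO array a was high for Eif4a2 (10.06, the others 9.77 to 9.80) and for Eif4g2 (11.41, the others 11.26 to 11.30), and DMSO array d was low for Eif2a (7.87, the others 8.23 to 8.33). SP600125 array a was high for Rps4l (6.51, the others 6.40 to 6.42), SP600125 array c was high for Rps27l (7.07, the others 6.67 to 6.74), and SP600125 array b was high for Eif4g2 (11.29, the others 11.15 to 11.18). The mean over the factors was low on DMSO array b (8.34, the others 8.40 to 8.41). With 92 groups examined, chance flags about 1 in 20 of them.

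The batches moved in opposite directions for Eif2a and Rps25: every SP600125 array of batch 1 lay below and every SP600125 array of batch 2 above the DMSO arrays of its batch. Eif2a changed by -0.16 in batch 1 and 0.33 in batch 2, a difference of 0.49 (limma interaction, adjusted p = 0.484). Rps25 changed by -0.22 and 0.12, a difference of 0.34 (limma interaction, adjusted p = 0.49). Neither difference passed the test over all genes.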

How the results depend on the processing

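The difference between the family medians (0.21) kept its direction under every alternative, from 0.14 to 0.27, and from 0.20 to 0.26 with single arrays left out. The count of ribosomal proteins called higher (5) was 10 with arrays centred on named genes, 16 after cyclic loess, 0 in batch 1 alone, 12 in batch 2 alone, 14 with trend and robust eBayes, 12 without both b arrays, and 4 to 12 with single arrays left out. As shares, the 5 were 8.62% (17% of all genes), the 10 were 17.2% (22.3%) and the 16 were 27.6% (9.44%). The 12 in batch 2 were 20.7% (11.1% of all genes) and the 14 were 24.1% (16%). The count called lower (1) was 8 with centring on all probe sets, 0 in batch 1 and 2 in batch 2, and 2 with trend and robust eBayes. Factors called higher (3) numbered 5 after quantile normalization, 7 after cyclic loess and 0 in batch 1; factors called lower (29) numbered 18, 10 and 0 there. The ribosomal protein median (0.04) was -0.064 with centring on all probe sets, 0.12 after cyclic loess, -0.026 in batch 1 and 0.10 in batch 2. The factor median (-0.17) was -0.10 after quantile normalization, -0.27 with centring on all probe sets and -0.048 after cyclic loess. Over all genes, rises made up 36.2% of calls as deposited, 25% after quantile normalization, 14.8% with centring on all probe sets and 46.9% with centring on named genes. In batch 1 alone, with 2 arrays a group, 1 gene of all was called.

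Of the 38 member calls 1 turned sign, that of Eif3k after cyclic loess (0.01). The other changes of sign given here belonged to genes that had not passed. Eif2a was -0.16 in batch 1. Rps25 (-0.01) was 0.031 after quantile normalization, 0.021 with centring on named genes, 0.10 after cyclic loess, 0.12 in batch 2, 0.024 over all its probe sets and 0.050 without both b arrays. Rplp0 (-0.0047) was 0.029 with centring on named genes, 0.0054 after cyclic loess, 0.0063 in batch 1 and 0.014 without both b arrays. Rps19 (-0.04) was 0.074 after quantile normalization, 0.13 after cyclic loess and 0.11 in batch 1. Rpl22 (-0.04) was 0.10, 0.13 and, without both b arrays, 0.0067. Rpl3l was -0.032 after quantile normalization and -0.021 after cyclic loess, Eif4ebp2 0.030 after cyclic loess, and Eef1b2 -0.052 with centring on all probe sets and -0.057 in batch 1. With single arrays left out, Rps25 ran from -0.039 to 0.033, Rplp0 from -0.035 to 0.024, Rps19 from -0.10 to 0.021 and Rpl22 from -0.11 to 0.025. The cause of these shifts was not tested.

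With the replicate letter as a block, the replicate block fit kept 34 of 38 member calls with the same sign and added 0; the ribosomal protein median stayed at 0.04 and the factor median at -0.17. Without the batch term, 32 calls were kept. For 2 of 5 DMSO arrays the best match among SP600125 arrays carried the same letter. Members near the olfactory receptor level, such as Rpl39l, had little signal over background.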

Other observations

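Paralogs of the same factor did not always share a change. Eif2s3x and Eif2s3y, the X and Y copies of the gamma subunit of eIF2, differed by 0.19 in their changes (-0.15 and 0.04), and neither passed. Rpl7 had 0.14 and did not pass, while its copy Rpl7l1, a nucleolar protein outside the symbol rule, fell by 0.16 (limma, adjusted p = 0.0451). Rpl10 had -0.10 and its copy Rpl10l 0.13, and neither passed. The scaffolds Eif4g2 and Eif4g3 had -0.11 and -0.24, and only the latter passed. These pairs are described by their values, and the differences were not tested.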
